A study of Mus musculus with 11 samples.

Results

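The cornified envelope and squamous barrier genes encode the proteins that stratified squamous epithelia, such as epidermis and the linings of mouth, oesophagus and anal canal, use to build their outer barrier. They were taken by name. Every gene whose symbol begins with Sprr or Lce followed by a digit was included, together with Lor, Ivl, Flg, Flg2, Rptn, Tchh, Dsg1a, Dsg3, Dsc3, Trp63, Tgm1, Tgm3, Sbsn, Krtdap, Dmkn, Calml3, Sfn, Lypd3, Ly6d, Perp and Pkp1. That gave 59 genes of the 35683 measured, of which 50 were abundant enough to test.

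The tissue was full-thickness colon from unweaned mice, and mRNA was sequenced from 6 Tnfr1-/- mice and 5 wild-type mice, all 2 weeks old. Tnfr1-/- mice lack the receptor TNFR1, encoded by Tnfrsf1a, through which the cytokine TNF sends most of its inflammatory and cell death signals. Each library came from 1 mouse, and replicate numbers within a genotype have no order. The labels name neither strain nor allele, and they do not say where the dissected colon ended, nor the sex, litter or batch of any mouse.

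A squamous epithelium renews itself from a basal layer and hardens as its cells move outward. Basal cells depend on the transcription factor p63. Above them, cells bind each other through desmosomes, load the underside of the membrane with envelope precursors such as involucrin, loricrin and the small proline-rich (SPRR) and late cornified envelope (LCE) proteins, and crosslink these with transglutaminases into a cornified envelope. The colon is lined by columnar epithelium that forms no such envelope, and its columnar mucosa meets a squamous lining at the anal canal. Some SPRR2 genes are also known from the intestine of mice, where gut bacteria induce Sprr2a.

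Of the 59 genes, 44 lie within 1.37 Mb of chromosome 3 (chr3:92080271-93449077, GRCm38), the epidermal differentiation complex, which holds all Sprr and Lce genes with Lor, Ivl, Flg, Flg2, Rptn and Tchh. Sbsn, Krtdap and Dmkn are neighbours within 39.6 kb of chromosome 7. Epidermal genes of this kind are known targets of AP-1, the dimer of FOS and JUN family proteins, so the 250 bases upstream of each start site were searched for its motif TGANTCA, which reads the same on both strands. A window was present for 47 of the 59 genes, and 17 of these (36.2%) held the motif, against 2113 of 27025 genes (7.82%) in the RefSeq promoter table for GRCm38.p6. Among tested genes with a window, 12 of 41 barrier genes (29.3%) held the motif, against 686 of 11160 genes (6.15%). The motif was found in 9 of 14 Sprr windows and in 0 of 20 Lce windows. Related copies such as the Sprr2 genes were each counted as a gene. These 6 windows are shown as examples with and without the motif. Lor, Ivl and Krtdap, which hold it, and Lce1i, which does not, were all lowest in Tnfr1-/- replicate 5 and highest in replicate 6. A link between the motif and the values per library was not tested. Capitals mark the motif, and each window ends at the base before the RefSeq start site.
Lor, chr3:92083143-92083392, minus strand: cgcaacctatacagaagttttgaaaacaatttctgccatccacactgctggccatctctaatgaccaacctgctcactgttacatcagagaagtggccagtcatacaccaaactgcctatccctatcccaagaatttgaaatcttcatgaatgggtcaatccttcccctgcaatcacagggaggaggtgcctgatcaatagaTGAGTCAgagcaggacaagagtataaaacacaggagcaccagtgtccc
Ivl, chr3:92573736-92573985, minus strand: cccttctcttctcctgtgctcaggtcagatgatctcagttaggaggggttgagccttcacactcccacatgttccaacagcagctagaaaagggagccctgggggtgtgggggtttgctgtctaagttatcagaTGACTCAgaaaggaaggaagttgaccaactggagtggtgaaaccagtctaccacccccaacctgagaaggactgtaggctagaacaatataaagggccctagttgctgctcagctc
Krtdap, chr7:30787655-30787904, plus strand: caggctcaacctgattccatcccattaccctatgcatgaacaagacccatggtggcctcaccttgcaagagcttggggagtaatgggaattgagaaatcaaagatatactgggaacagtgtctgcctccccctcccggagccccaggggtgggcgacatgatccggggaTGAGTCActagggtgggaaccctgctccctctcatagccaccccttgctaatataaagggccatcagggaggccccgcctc
Sprr1b, chr3:92438780-92439029, minus strand: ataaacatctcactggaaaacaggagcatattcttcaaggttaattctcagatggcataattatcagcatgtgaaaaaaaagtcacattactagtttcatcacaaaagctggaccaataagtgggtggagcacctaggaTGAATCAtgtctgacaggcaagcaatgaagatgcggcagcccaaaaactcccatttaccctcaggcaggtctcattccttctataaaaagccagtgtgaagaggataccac
Sprr2a2, chr3:92250397-92250646, plus strand: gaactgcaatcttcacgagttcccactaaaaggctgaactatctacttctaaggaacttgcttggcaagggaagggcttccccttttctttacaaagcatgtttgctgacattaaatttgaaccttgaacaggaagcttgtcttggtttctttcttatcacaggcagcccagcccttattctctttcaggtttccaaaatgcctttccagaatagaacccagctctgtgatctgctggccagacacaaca
Lce1i, chr3:92778900-92779149, minus strand: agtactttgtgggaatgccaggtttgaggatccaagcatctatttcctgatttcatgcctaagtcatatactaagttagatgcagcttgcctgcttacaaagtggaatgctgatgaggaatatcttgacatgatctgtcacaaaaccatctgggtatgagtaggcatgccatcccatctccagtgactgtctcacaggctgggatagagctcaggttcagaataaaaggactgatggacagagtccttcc
The first base of the motif lay 48 bases before the start site in Lor, 116 in Ivl, 81 in Krtdap and 111 in Sprr1b. The Sprr2a2 and Lce1i windows do not hold these letters. A match of letters describes the sequence and does not show binding. Calml3, Perp, Pkp1, Trp63, Dsc3, Lce1f, Dsg1a, Sprr2j-ps, Sprr2g, Sprr2c-ps, Ly6d and Dsg3 had no window.

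Abundance here is TPM divided by the size factor of its library, so it is per transcript length and levels of different genes can be compared. For a very short transcript such as that of Sprr4, the same abundance rests on far fewer reads. Values are listed by replicate number, 1 to 6 for Tnfr1-/- and 1 to 5 for wild type. As a check of the labels, Tnfrsf1a had 19.9, 25.2, 19, 22, 20.2 and 28 in the Tnfr1-/- colons, against 73.1, 70.2, 61.7, 68.3 and 62 in the wild-type colons. The groups did not overlap, and RNA from the locus was present in every Tnfr1-/- library. Columnar colon genes were abundant in all libraries, with a summed abundance of 8 markers between 6429 and 9274 in Tnfr1-/- and between 6940 and 11573 in wild type. Estimated depth was 27.6 to 42.0 M reads per library.

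No barrier gene was called different between Tnfr1-/- and wild-type colons. Limma called 0 of the 50 at an adjusted p under 0.05, where 1 of all 15079 genes tested (0.00663%) was called, namely Tnfrsf1a. The smallest adjusted p was 0.525, for Sprr1b. At an unadjusted p under 0.05 there was 1 barrier gene, or 2% of those tested, against 9.37% of all genes. It was higher in Tnfr1-/-, as were 4.2% of all genes at that p, and 0 barrier genes were lower, against 5.17% of all genes. In no barrier gene did all Tnfr1-/- libraries lie on one side of all wild-type libraries, which was the case for 1.49% of all genes. Fold changes on the log2 scale were nonetheless above 0 for 45 of 50 barrier genes, with a median of 0.50, against 47.9% of all genes and a median of -0.0061. These genes vary together from library to library, so their common direction does not count as 45 separate observations.

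**Figure D1:**
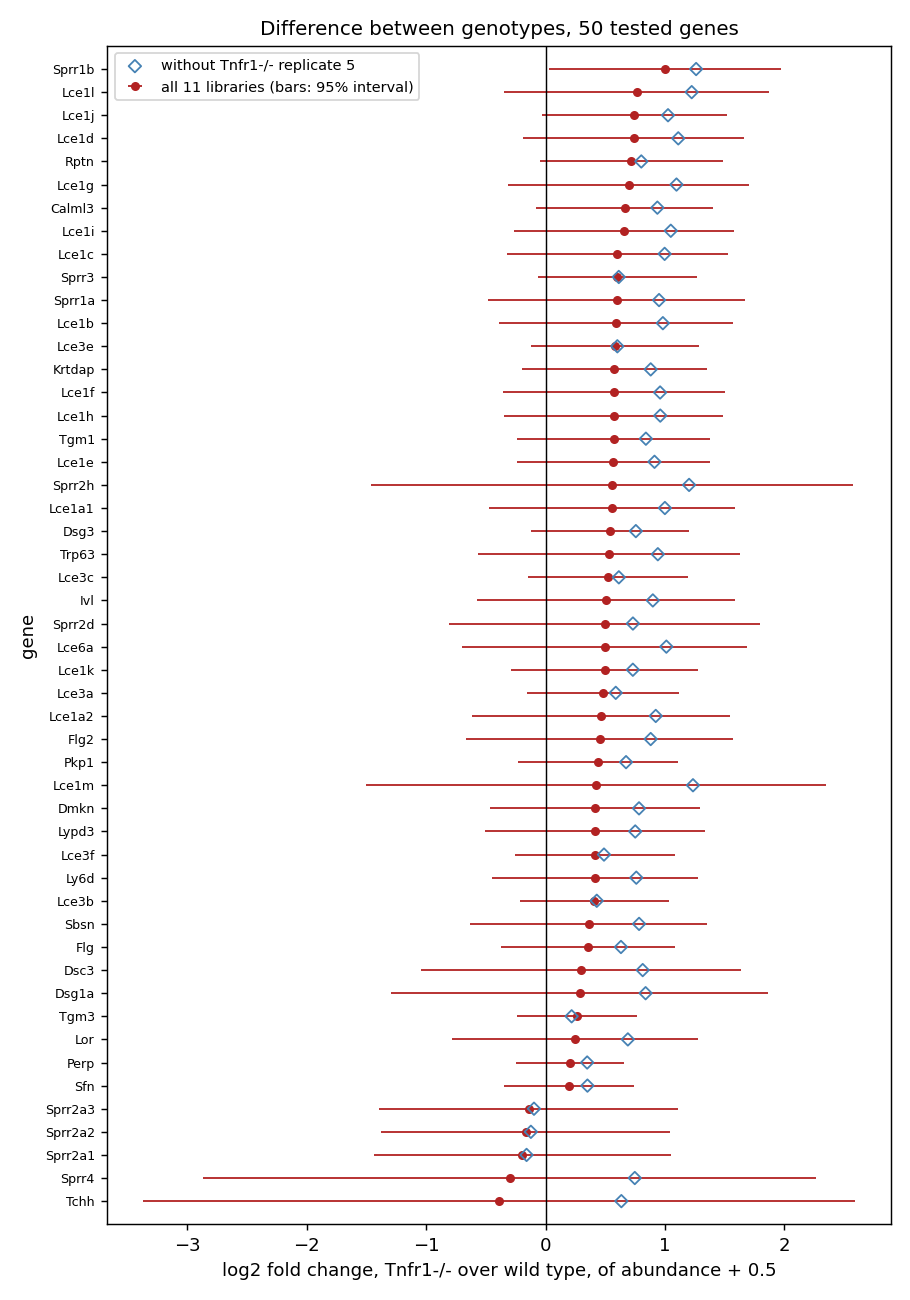
Log2 fold change of Tnfr1-/- over wild type for the 50 tested genes (horizontal axis, of abundance + 0.5), ordered by size, with all 11 libraries (filled circles, bars give the 95% interval) and without Tnfr1-/- replicate 5 (open diamonds). The interval of Sprr1b alone lies above 0 with all libraries, the 5 genes at the bottom (Sprr2a3, Sprr2a2, Sprr2a1, Sprr4 and Tchh) are below 0, and most diamonds lie to the right of their circles.

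Barrier genes spread widely between mice of one genotype, and 1 library was the lowest for most of them. The highest library exceeded the lowest by a median of 7.46-fold over the 48 tested barrier genes with no library at 0, against 1.5-fold for all such genes tested. The 95% interval of the log2 fold change reached a median of 0.93 to each side for barrier genes and 0.22 for all genes. Tnfr1-/- replicate 5 was the lowest of the 11 libraries for 37 of 50 barrier genes, against 11.2% of all genes tested, and Tnfr1-/- replicate 6 was the highest for 34 of 50, against 10.3% of all genes. Wild-type replicate 4 was the lowest for 8. The margin of Tnfr1-/- replicate 5 below the next lowest library differed between genes. For example, it had 109 against 113 for Sfn and 17.3 against 46.7 for Lor. In bulk tissue, fewer squamous cells and less of these RNAs in each cell cannot be told apart.

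**Figure D2:**
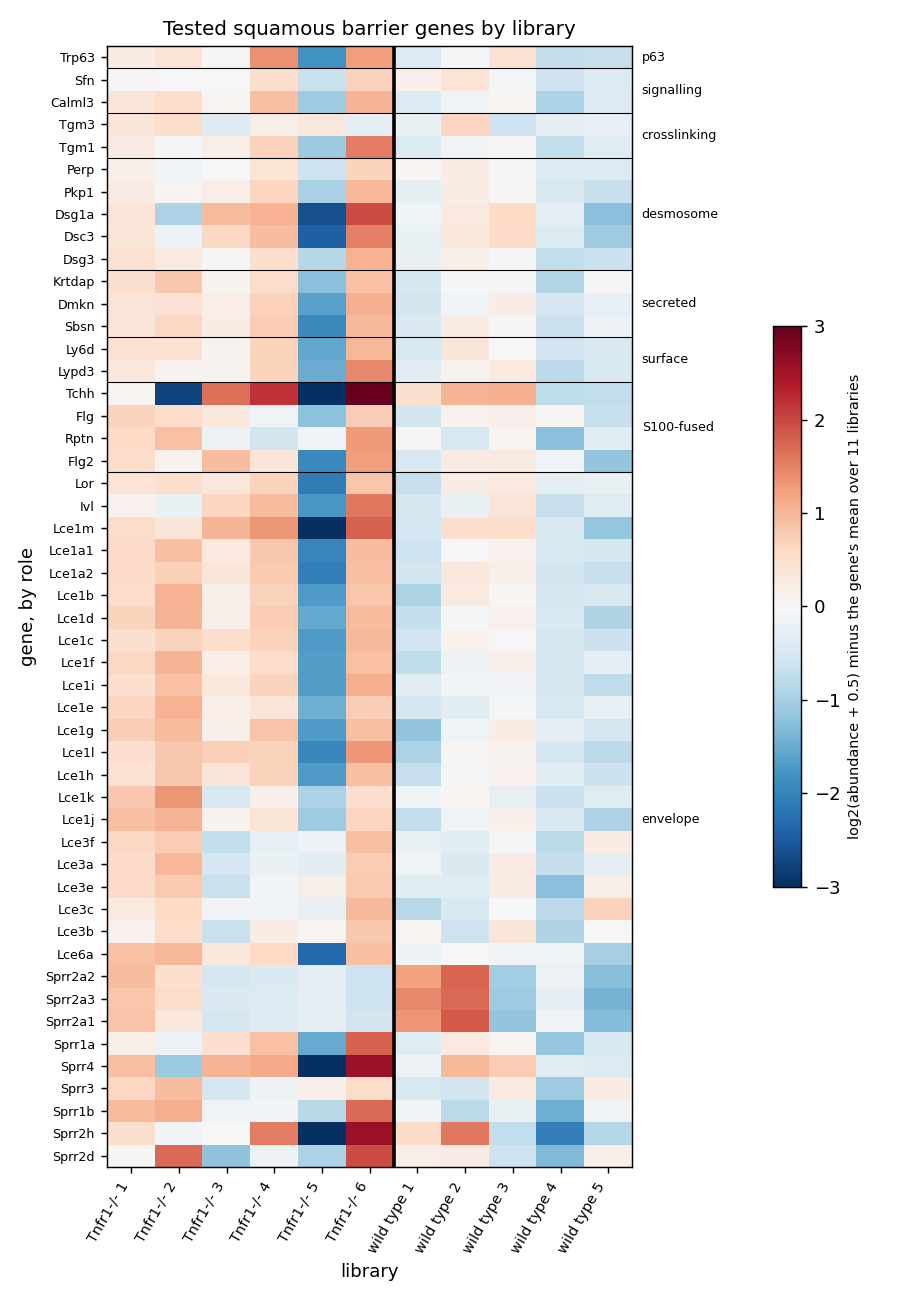
Abundance of the 50 tested genes in each library, as log2(abundance + 0.5) minus the gene's own mean over the 11 libraries (colour; values beyond 3 either way are drawn at the limit), grouped by role. The column of Tnfr1-/- replicate 5 is blue for 37 genes that are lowest there, the column of Tnfr1-/- replicate 6 is red for most genes, and the Sprr2a genes follow another pattern, with wild-type replicates 1 and 2 highest.

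Trp63, which encodes p63 (ENSMUSG00000022510, chr16:25683763-25892102), had 5.96, 6.88, 5.21, 13.8, 1.08 and 12.7 in the Tnfr1-/- colons, against 3.7, 4.88, 7.07, 2.86 and 2.95 in the wild-type colons. Tnfr1-/- replicates 4 and 6 were the highest and replicate 5 the lowest, with all other libraries between (log2 fold change 0.53, SE 0.50, limma adjusted p = 0.77). The 4 transcripts that start at the internal promoter, 118.2 kb inside the gene, held 98.2% of its abundance. That promoter makes the short ΔN form, the form known from basal cells of squamous epithelia. Among 7 genes of basal squamous keratinocytes, 0 were called and 0 had an unadjusted p under 0.05, with 6 of 7 fold changes above 0 and a median of 0.38. Their sum was 735, 732, 571, 1179, 248 and 852 in the Tnfr1-/- colons, against 424, 602, 488, 392 and 469 in the wild-type colons. The keratin Krt14, the most abundant of them, averaged 200.02 ± 101 in Tnfr1-/- colons (SD, n = 6) and 119 ± 23.9 in wild-type colons (SD, n = 5). Krt14, Krt5, Krt15 and Col7a1 were lowest in Tnfr1-/- replicate 5, at 18.8, 19.2, 27.9 and 1.14. Itga6, Lamb3 and Itgb4 were not lowest there, at 98.6, 48.5 and 33.8, so the sum mixes genes that differ in this.

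The desmosome genes join squamous cells to each other. Perp, a tetraspan protein of desmosomes, was the most abundant at 299, 254, 271, 355, 174 and 424 in the Tnfr1-/- colons, against 276, 311, 261, 205 and 201 in the wild-type colons. Pkp1, a plakophilin that ties desmosomal cadherins to keratin, had 31.5, 27.7, 30.3, 41.6, 13 and 52.7 in the Tnfr1-/- colons, against 21.4, 30.9, 27, 18.7 and 16.2 in the wild-type colons. Both were spread over a narrower range than most barrier genes, and the groups overlapped. Dsg1a, a desmoglein of the upper layers, was at 9.83, 3.66, 14.7, 15.9, 0.782 and 30.5 in the Tnfr1-/- colons, against 6.77, 9.13, 11.5, 6.06 and 2.81 in the wild-type colons. Dsc3, a desmocollin, was at 9.77, 6.6, 11.8, 14.5, 0.953 and 22.3 in the Tnfr1-/- colons, against 6.39, 9.37, 11.4, 5.46 and 3.3 in the wild-type colons. Dsg3, the desmoglein of lower layers, had 2.88, 2.44, 2.0, 3.06, 0.855 and 4.54 in the Tnfr1-/- colons, against 1.6, 2.33, 1.84, 0.977 and 1.08 in the wild-type colons. In all 5 genes Tnfr1-/- replicate 5 was the lowest library and Tnfr1-/- replicate 6 the highest. Log2 fold changes ran from 0.21 to 0.54 with adjusted p of 0.618 or more by limma, and that of Dsg1a, 0.29, turned to -0.082 without Tnfr1-/- replicate 6. Desmosome genes that columnar epithelium also uses (Jup, Dsp, Dsc2, Dsg2, Pkp3 and Pkp2) had a median fold change of 0.04, with 3 of 6 above 0, 0 called and 0 at an unadjusted p under 0.05.

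RNAs of secreted proteins of suprabasal cells were more abundant than those of the surface proteins Ly6d and Lypd3. Krtdap (ENSMUSG00000074199, chr7:30787896-30791097), a secreted peptide of differentiating keratinocytes, had 416, 518, 318, 435, 123 and 547 in the Tnfr1-/- colons, against 205, 286, 287, 161 and 284 in the wild-type colons. Dmkn, which encodes dermokine, had 187, 191, 165, 229, 45.4 and 300.3 in the Tnfr1-/- colons, against 97.4, 135, 166, 101 and 120.5 in the wild-type colons. Sbsn, which encodes suprabasin, had 119, 142, 106, 155, 23.5 and 180.2 in the Tnfr1-/- colons, against 68.4, 108, 94.3, 58.5 and 80.9 in the wild-type colons. In all 3 neighbours the same Tnfr1-/- library was lowest and the same one highest, while the wild-type libraries spanned a narrower range. Krtdap averaged 393 ± 155 in Tnfr1-/- colons (SD, n = 6) and 244 ± 58.5 in wild-type colons (SD, n = 5), which was not called (log2 fold change 0.57, SE 0.35, limma adjusted p = 0.646). The surface protein Ly6d had 72.4, 72.9, 56.6, 83.4, 17.7 and 105 in the Tnfr1-/- colons, against 37.6, 67.8, 53.4, 35.3 and 38.2 in the wild-type colons. Lypd3, another protein of the LY6 family, had 17.2, 14.9, 14.9, 22, 4.6 and 38.1 in the Tnfr1-/- colons, against 11, 15.1, 16.9, 7.79 and 9.98 in the wild-type colons. Neither separated the genotypes, with log2 fold changes of 0.41 and 0.42.

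The signalling genes varied less between libraries than most barrier genes did. Sfn, which encodes 14-3-3 sigma, had 179, 175, 175, 247, 109 and 282 in the Tnfr1-/- colons, against 193, 232, 171, 113 and 130.5 in the wild-type colons. Its log2 fold change was 0.20. Calml3, a calmodulin-like protein of squamous epithelium, had 31, 34.4, 24.9, 45.4, 11.1 and 48.6 in the Tnfr1-/- colons, against 17.7, 21.7, 25.3, 12.1 and 18.3 in the wild-type colons. It averaged 32.6 ± 13.8 in Tnfr1-/- colons (SD, n = 6) and 19 ± 4.91 in wild-type colons (SD, n = 5), with a log2 fold change 0.66, SE 0.34, limma adjusted p = 0.579.

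Loricrin, the main envelope protein of mouse epidermis, was clearly present in the colon samples. Lor (ENSMUSG00000043165, chr3:92080271-92083142) had 102, 108, 96.4, 122, 17.3 and 136 in the Tnfr1-/- colons, against 46.7, 88.7, 93.4, 62.8 and 65.5 in the wild-type colons. In 5 Tnfr1-/- colons it was above every wild-type colon, and in replicate 5 it was below all of them (log2 fold change 0.25, SE 0.47, limma adjusted p = 0.913). Ivl, the early scaffold involucrin, had 6.47, 5.07, 9.55, 11.9, 1.41 and 18.8 in the Tnfr1-/- colons, against 4.0, 5.12, 7.84, 3.48 and 4.45 in the wild-type colons, with the groups overlapping also among the other libraries.

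All 14 Lce1 genes were lowest in the same library as loricrin. Their summed abundance was 269, 314, 259, 335, 38.1 and 414 in the Tnfr1-/- colons, against 113, 203, 208, 125 and 106 in the wild-type colons. The most abundant was Lce1m, with 69.6, 61.9, 97.9, 121, 2.75 and 163 in the Tnfr1-/- colons, against 32.7, 68, 69, 34.1 and 21 in the wild-type colons. As for each of the 14 genes, the wild-type libraries lay between the extremes of the Tnfr1-/- libraries. Lce1a1 had 35.6, 44.9, 29.6, 42.5, 5.71 and 45.7 in the Tnfr1-/- colons, against 15.4, 23.8, 26.2, 17.2 and 16.4 in the wild-type colons. Lce1a2 had 23.5, 25.9, 20.3, 27.4, 3.32 and 29.8 in the Tnfr1-/- colons, against 10.6, 20.001, 17.6, 10.5 and 9.56 in the wild-type colons. These proteins are added late to the epidermal envelope. Lce1b had 21.3, 30.5, 16.4, 23.8, 4.12 and 26 in the Tnfr1-/- colons, against 7.2, 17.6, 15.2, 9.81 and 10.4 in the wild-type colons. Lce1d had 23, 29.2, 16.1, 24.3, 4.57 and 27.9 in the Tnfr1-/- colons, against 8.54, 13.6, 15.5, 10.2 and 7.43 in the wild-type colons. Lce1c had 19.4, 22.3, 19.9, 22.6, 3.86 and 27.6 in the Tnfr1-/- colons, against 8.94, 15.1, 13.7, 9.44 and 8.67 in the wild-type colons. Each had its lowest value in Tnfr1-/- replicate 5 and the rest of its Tnfr1-/- values mostly above wild type. Lce1f had 14.6, 19.4, 10.8, 13.7, 2.58 and 17.7 in the Tnfr1-/- colons, against 5.29, 8.34, 10.5, 6.48 and 7.54 in the wild-type colons. Lce1i had 10.9, 14.3, 9.51, 12.3, 2.04 and 16.5 in the Tnfr1-/- colons, against 5.96, 7.07, 7.12, 5.05 and 4.21 in the wild-type colons. Lce1e had 12.3, 16.5, 8.83, 10.2, 2.48 and 13.1 in the Tnfr1-/- colons, against 5.26, 6.1, 7.48, 5.49 and 6.41 in the wild-type colons. The wild-type libraries of these 3 genes lay below all Tnfr1-/- libraries other than replicate 5. Lce1g had 10.6, 12.3, 6.81, 11.4, 1.55 and 11.9 in the Tnfr1-/- colons, against 2.43, 5.59, 7.17, 4.88 and 4.17 in the wild-type colons. Lce1l had 8.29, 10.3, 9.74, 9.5, 1.09 and 14.9 in the Tnfr1-/- colons, against 2.76, 5.87, 6.19, 3.82 and 3.08 in the wild-type colons. Lce1h had 7.29, 9.66, 7.08, 8.89, 1.29 and 10.3 in the Tnfr1-/- colons, against 3.1, 5.16, 5.76, 4.13 and 3.19 in the wild-type colons. Lce1j was the Lce1 gene with the smallest p. It had 6.05, 6.64, 3.26, 4.15, 1.17 and 4.97 in the Tnfr1-/- colons, against 1.64, 2.77, 3.37, 2.07 and 1.35 in the wild-type colons (log2 fold change 0.74, SE 0.35, limma adjusted p = 0.548), and Lce1k averaged 4.99 ± 2.98 in Tnfr1-/- colons (SD, n = 6) and 2.96 ± 0.618 in wild-type colons (SD, n = 5). Over the 14 genes log2 fold changes ran from 0.42 to 0.76, with 0 called and 0 at an unadjusted p under 0.05. Their coding sequences are 49.0% to 95.7% identical in 91 pairs (median 83.4%). The least alike pairs, at 49.0% to 59.1%, all involve Lce1m, which makes up the largest part of the sum. For the closer copies the split of reads may be uncertain, which was not tested, so their single values are less sure.

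**Figure D3:**
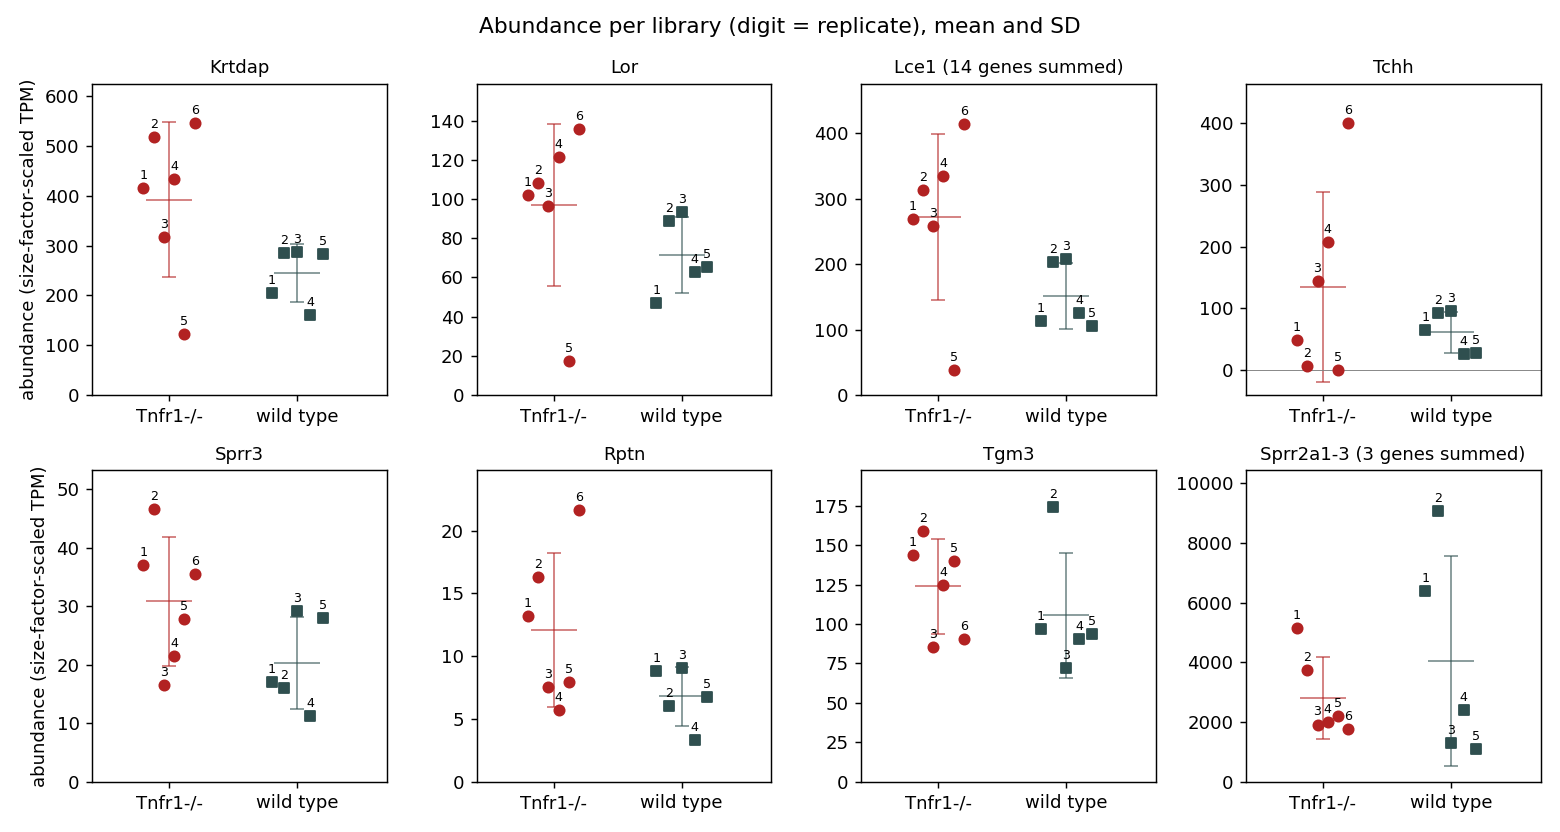
Abundance (TPM divided by a size factor) of 6 genes and 2 sums in each library, with Tnfr1-/- (circles) left of wild type (squares); digits give the replicate, long horizontal marks the mean and bars the SD. Tnfr1-/- replicate 5 is lowest for Krtdap, Lor, the Lce1 sum and Tchh but lies within the other values for Sprr3, Rptn, Tgm3 and the Sprr2a sum. The Sprr2a sum is highest in wild-type replicates 1 and 2.

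The Lce3 genes did not follow the Lce1 genes into that low library. In humans, LCE3 proteins are known from inflamed skin. The 6 genes summed to 32.2, 38.4, 14.3, 19.6, 19.6 and 41.6 in the Tnfr1-/- colons, against 17.9, 15.3, 23.8, 10.4 and 24.4 in the wild-type colons, with Tnfr1-/- replicate 5 in the middle of the range and wild-type replicate 4 the lowest. Lce3f, the most abundant, had 12.7, 14, 4.63, 6.72, 7.01 and 15.4 in the Tnfr1-/- colons, against 6.84, 6.35, 7.81, 4.4 and 9.61 in the wild-type colons. Lce3e had 5.1, 6.05, 1.88, 3.07, 3.75 and 6.02 in the Tnfr1-/- colons, against 2.46, 2.42, 3.94, 1.08 and 3.68 in the wild-type colons. In both, the genotypes overlapped. The means of Lce3a, Lce3c and Lce3b over all libraries were 4.50, 3.08 and 2.93. The 5 tested Lce3 genes had log2 fold changes of 0.41 to 0.58, and Lce3d, with a mean of 0.646, was too low to test. Lce6a differed from them, with 12.2, 13.1, 8.0, 9.93, 0.841 and 12.3 in the Tnfr1-/- colons, against 5.66, 6.33, 5.98, 5.8 and 2.92 in the wild-type colons, lowest in the same Tnfr1-/- library as loricrin.

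Among the SPRR precursors, short proline-rich proteins that bridge other envelope proteins, Sprr1b had the smallest p of all barrier genes. Sprr1b (ENSMUSG00000048455, chr3:92436809-92438789) had 13.1, 14.7, 6.14, 6.18, 3.48 and 22.7 in the Tnfr1-/- colons, against 6.03, 3.54, 5.6, 2.06 and 6.08 in the wild-type colons. It was higher than every wild-type library in 5 of 6 Tnfr1-/- libraries, by a small margin in replicates 3 and 4. It averaged 11.1 ± 7.19 in Tnfr1-/- colons (SD, n = 6) and 4.66 ± 1.79 in wild-type colons (SD, n = 5), with a log2 fold change of 1.00 (SE 0.44, 95% interval 0.03 to 1.97, limma unadjusted p = 0.0440, adjusted p = 0.525). Sprr1a had 163, 128, 205, 267, 50.8 and 499 in the Tnfr1-/- colons, against 112, 179, 153, 65.1 and 105 in the wild-type colons, highest in Tnfr1-/- replicate 6. Sprr3, a protein of mouth and oesophagus, had 37.1, 46.6, 16.6, 21.4, 27.9 and 35.5 in the Tnfr1-/- colons, against 17, 16, 29.2, 11.2 and 28 in the wild-type colons. Tnfr1-/- replicate 5 was within the range of the other libraries, and the genotypes overlapped (log2 fold change 0.60, SE 0.30, limma adjusted p = 0.573). Sprr4 had 38.2, 9.14, 41.8, 45.3, 0 and 125 in the Tnfr1-/- colons, against 17.8, 40.2, 34.9, 16 and 15.2 in the wild-type colons. It was listed at 0 in Tnfr1-/- replicate 5, and its log2 fold change of -0.30 (SE 1.17) turned to 0.75 without that library. Its values rest on few reads, with an estimated median of 30.6 per library, against 819 for Sprr3. Sprr2h had 5.03, 3.21, 3.47, 11, 0 and 23.1 in the Tnfr1-/- colons, against 5.36, 11.4, 1.86, 0.45 and 1.7 in the wild-type colons. Sprr2d had 4.29, 14.6, 1.53, 3.69, 1.93 and 17.7 in the Tnfr1-/- colons, against 4.81, 5.11, 2.57, 1.38 and 4.7 in the wild-type colons. These last genes ranged widely within both genotypes. Sprr2k, Sprr2b, Sprr2i, Sprr2j-ps, Sprr2g, Sprr2e and Sprr2f were too low to test, with means from 1.06 to 0.0513, and Sprr2c-ps was listed at 0 in every library.

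The Sprr2a genes were by far the most abundant and had the highest values in other libraries. Sprr2a1, Sprr2a2 and Sprr2a3 held 61.2% of the summed abundance of all 59 genes over the 11 libraries, with 52.8% over the Tnfr1-/- libraries and 70.6% over the wild-type libraries. The sequences below show why they are described by their sum: Sprr2a2 and Sprr2a3, the coding sequences in GENCODE M21 (GRCm38, plus strand, 249 bases each), differ at 3 bases, set in capitals, and Sprr2a1 has the same coding sequence as Sprr2a2.
Sprr2a2, ENSMUST00000090871.2: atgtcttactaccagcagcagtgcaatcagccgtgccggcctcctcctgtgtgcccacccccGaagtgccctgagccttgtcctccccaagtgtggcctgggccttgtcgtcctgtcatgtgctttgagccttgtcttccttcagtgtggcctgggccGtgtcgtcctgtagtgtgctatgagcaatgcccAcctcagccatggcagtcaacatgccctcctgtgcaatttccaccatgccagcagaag
Sprr2a3, ENSMUST00000193337.1: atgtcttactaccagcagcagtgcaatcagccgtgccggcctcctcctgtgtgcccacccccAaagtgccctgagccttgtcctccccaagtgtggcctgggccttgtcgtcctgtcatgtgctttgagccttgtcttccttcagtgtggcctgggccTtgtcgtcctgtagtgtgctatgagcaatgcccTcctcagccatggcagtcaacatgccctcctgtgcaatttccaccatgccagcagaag
Reads from the coding sequence cannot tell Sprr2a1 from Sprr2a2, and the annotated spans of Sprr2a1 (chr3:92215799-92221911) and Sprr2a2 (chr3:92215920-92256724) overlap. Untranslated sequence was not compared. The annotated transcripts of these 2 genes differ in length, so the summed abundance also depends on how reads were split. The windows upstream of Sprr2a1 and Sprr2a2 are also identical, and 222 bases of the window of Sprr2a3 match them without a difference. The sum was 5164, 3754, 1916, 2004, 2208 and 1757 in the Tnfr1-/- colons, against 6407, 9061, 1305, 2394 and 1107 in the wild-type colons. Wild-type replicates 1 and 2 were the highest of all libraries and wild-type replicate 5 the lowest, so the Tnfr1-/- range lay inside the wild-type range. The sum averaged 2800.4 ± 1368 in Tnfr1-/- colons (SD, n = 6) and 4055 ± 3522 in wild-type colons (SD, n = 5). The SD was nearly as large as the mean in wild type. Most of the sum was assigned to Sprr2a2, with 4437, 3203, 1625, 1699.9, 1877 and 1491 in the Tnfr1-/- colons, against 5354, 7697, 1119.5, 2045 and 951 in the wild-type colons. Sprr2a3 had 410.4, 333, 169, 172, 187 and 148 in the Tnfr1-/- colons, against 619.6, 745, 109, 189 and 86 in the wild-type colons. Sprr2a1 had 316, 218, 122, 132, 144 and 118 in the Tnfr1-/- colons, against 433, 619, 75.8, 160.1 and 69.9 in the wild-type colons. Log2 fold changes of the 3 genes were -0.17, -0.14 and -0.20 with SE of 0.55 to 0.57 (limma adjusted p of 0.949 or more), and turned to 0.76, 0.85 and 0.78 without wild-type replicates 1 and 2, a step that raises them by construction. The same 2 libraries had the highest sums of gut antimicrobial and acute-phase genes: the 7 genes summed to 116, 397, 186, 156, 203 and 206 in the Tnfr1-/- colons, against 1675, 1036, 307, 223 and 136 in the wild-type colons. The lectin Reg3b, the most abundant of these, had 55.8, 269.6, 109.7, 102, 144 and 64.8 in the Tnfr1-/- colons, against 1176, 664, 255, 149.6 and 101 in the wild-type colons. Reg3g and Retnlb were also highest in these 2 libraries, but the other 4 genes were not. S100a8 and S100a9, the subunits of calprotectin, were highest in Tnfr1-/- replicate 6, at 39.9 and 35.9, and Lcn2, which encodes lipocalin 2, was highest in Tnfr1-/- replicate 2, at 3.19. The acute-phase gene Saa3 was highest in wild-type replicates 1 and 3, at 17.8 and 13.7. The columnar colon markers were highest in wild-type replicates 1 and 2, at 9769 and 11573. Of the 7 antimicrobial genes, 0 were called. At an unadjusted p under 0.05 there were 2, both lower, as were 5.17% of all genes tested. Tnfr1-/- replicate 1, with a Sprr2a sum of 5164, had the lowest antimicrobial sum of all libraries, 116. The part of the antimicrobial genes in the Sprr2a values was not tested.

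The proteins that join an S100 domain to long repeats organise keratin filaments. Flg, which encodes filaggrin of the epidermal granular layer, had 145, 133, 114, 84.4, 38.6 and 152 in the Tnfr1-/- colons, against 61.8, 96.8, 100.1, 92.2 and 56.4 in the wild-type colons. Rptn, which encodes repetin, had 13.2, 16.3, 7.55, 5.74, 7.94 and 21.6 in the Tnfr1-/- colons, against 8.79, 6.05, 9.06, 3.28 and 6.75 in the wild-type colons. Filaggrin was lowest in Tnfr1-/- replicate 5 and repetin was not (log2 fold change 0.72, SE 0.35, limma adjusted p = 0.563, for repetin). Flg2, at a mean of 3.29 over all libraries, averaged 4.01 ± 2.34 in Tnfr1-/- colons (SD, n = 6) and 2.42 ± 1.06 in wild-type colons (SD, n = 5).

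Tchh, which encodes trichohyalin of the inner root sheath of hair (ENSMUSG00000052415, chr3:93442330-93449077), had the widest ratio of highest to lowest library among the barrier genes with no library at 0, with 48.4, 6.2, 143, 207, 0.668 and 401 in the Tnfr1-/- colons, against 64.1, 92.6, 95.5, 26.6 and 27.3 in the wild-type colons. The highest library exceeded the lowest by 599.7-fold, and both were Tnfr1-/-. Its log2 fold change of -0.39 (SE 1.36, limma adjusted p = 0.956) turned to 0.63 without Tnfr1-/- replicate 5 and to 0.13 without replicate 2. Hair follicle keratins had the same lowest and highest libraries: the 6 keratins summed to 321, 59.1, 923, 1463, 1.8 and 2495 in the Tnfr1-/- colons, against 409, 541, 738, 225 and 194 in the wild-type colons. Krt71, a keratin of the inner root sheath and the most abundant of these, had 106, 15.9, 293, 412, 0.454 and 763 in the Tnfr1-/- colons, against 121, 159, 213, 77 and 56.3 in the wild-type colons. The libraries with the least Tchh, Tnfr1-/- replicates 5 and 2, also had the least hair keratin, and Tnfr1-/- replicate 6 had the most of both. Of the 6 hair keratins, 0 were called, 0 had an unadjusted p under 0.05, and 0 were at 0 in every library. Their part in the values of Tchh and Sprr4 was not tested. Tnfr1-/- replicate 2 was low for these 2 genes but not for Krtdap, Lor or the Lce1 sum.

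The crosslinking enzymes differed from each other. Tgm3 had 144, 159, 85.5, 125, 140.2 and 90.4 in the Tnfr1-/- colons, against 96.8, 174, 71.9, 90.8 and 93.8 in the wild-type colons. Its highest library was wild-type replicate 2, Tnfr1-/- replicate 5 was among the higher ones, and its lowest and highest libraries were 2.42-fold apart, the least of any barrier gene with no library at 0. It averaged 124 ± 30.01 in Tnfr1-/- colons (SD, n = 6) and 105 ± 39.6 in wild-type colons (SD, n = 5), with a log2 fold change 0.26, SE 0.23, limma adjusted p = 0.752. Tgm1, the membrane-bound transglutaminase of keratinocytes, was much lower, with 6.37, 5.13, 6.18, 8.86, 2.22 and 16.3 in the Tnfr1-/- colons, against 3.88, 4.87, 5.48, 2.97 and 4.03 in the wild-type colons, lowest and highest in the same libraries as the desmosome genes.

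Without Tnfr1-/- replicate 5, still 0 barrier genes were called by limma (where 0.00667% of all genes were), but 32 of 50 had an unadjusted p under 0.05, all higher in Tnfr1-/-, against 5.06% of all genes with a p that small and higher. The smallest limma adjusted p was then 0.193 and the median log2 fold change 0.81. Among the 32 were all 14 Lce1 genes, Lce6a, Lor, Krtdap, Dmkn, Sbsn, Ly6d, Lypd3, Trp63 and Calml3, and none of the Lce3 or Sprr2a genes. In 13 of 50 genes, 9 of them Lce1 genes, the 5 remaining Tnfr1-/- libraries were all above the 5 wild-type libraries, against 1.33% of all genes. The Lce1 sum, for example, was 259 or more in these 5 Tnfr1-/- colons and 208 or less in wild type. This library was picked because it was low, and leaving it out raises by construction the difference of each gene that is lowest there. The count at an unadjusted p under 0.05 was 7 without Tnfr1-/- replicate 3 and between 0 and 3 without each other library, with 0 without Tnfr1-/- replicates 1, 2 or 6 or wild-type replicate 4. The share of all genes at that p is not given for these other libraries. Their counts therefore show only how the number moved, not whether barrier genes exceeded other genes.

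Limma called 0 genes in other lists of known squamous barrier genes. Among 7 suprabasal keratins of mucosal and stressed squamous epithelium, all 7 fold changes were above 0 (median 0.71), and Krt13, Krt4, Krt6a and Krt6b had an unadjusted p under 0.05, as did 4.2% of all tested genes in that direction and 9.37% in either. Without Tnfr1-/- replicate 5, Krt13 and Krt6b were just above that threshold, and Krt4, Krt6a, Krt16 and Krt78 were under it. The sum of the 7 was 416, 415, 258, 352, 186 and 576 in the Tnfr1-/- colons, against 211, 212, 260.05, 132 and 245 in the wild-type colons. Krt17, a keratin of hair follicles and stressed epidermis and the most abundant of these, averaged 121 ± 95.3 in Tnfr1-/- colons (SD, n = 6) and 69.6 ± 22.3 in wild-type colons (SD, n = 5), with a log2 fold change 0.15, SE 0.81, limma adjusted p = 0.974. Krt13, the keratin of mouth and oesophagus, averaged 118 ± 47.2 in Tnfr1-/- colons (SD, n = 6) and 70.3 ± 22.2 in wild-type colons (SD, n = 5), with a log2 fold change 0.71, SE 0.31, limma adjusted p = 0.523. In Tnfr1-/- replicate 5, Krt17 and Krt16 were lower than in any other library, at 5.54 and 1.62. Krt13, Krt4, Krt6a, Krt6b and Krt78 were not lowest there. Krt13 and Krt4, at 100 and 40.0 in that library, were highest in Tnfr1-/- replicate 2. Epidermal suprabasal keratins, with 3 of 4 genes tested and 0 at an unadjusted p under 0.05, summed to 607, 449.9, 422, 397, 144 and 681 in the Tnfr1-/- colons, against 245, 311, 396, 295 and 253 in the wild-type colons, again lowest in Tnfr1-/- replicate 5. Of 11 further cornified envelope proteins, all had fold changes above 0 (median 0.48) and 0 an unadjusted p under 0.05. Asprv1, a protease that processes filaggrin and the most abundant of these, averaged 86.3 ± 44.9 in Tnfr1-/- colons (SD, n = 6) and 51.4 ± 15.1 in wild-type colons (SD, n = 5). Barrier lipid genes had 6 of 7 above 0 (median 0.41) with 0 at an unadjusted p under 0.05. Barrier proteases and their inhibitors had 6 of 7 above 0 (median 0.18), 1 of them, the inhibitor Spink5, at an unadjusted p under 0.05. Of 9 tested squamous regulators 8 were above 0 (median 0.25), 1 of them, Grhl3, at an unadjusted p under 0.05. Each stands as a single gene beside the 4.2% of all tested genes that were higher at this threshold. Without Tnfr1-/- replicate 5, the genes of these lists at an unadjusted p under 0.05 were all higher in Tnfr1-/-. They numbered 10 of the 11 further envelope proteins, 5 of 7 lipid genes, 3 of 7 proteases and inhibitors and 4 of 9 regulators. Of epidermal keratins there were 2 of 3 and of basal squamous keratinocyte genes 4 of 7, beside 5.06% of all genes. That library was picked because squamous genes were low in it, and leaving it out raises by construction the difference of genes low there. The share of all genes is therefore not a like comparison for these lists. Krt6b, Krt16, Krt78, Spink5 and Grhl3 were named after their values were seen.

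**Figure D4:**
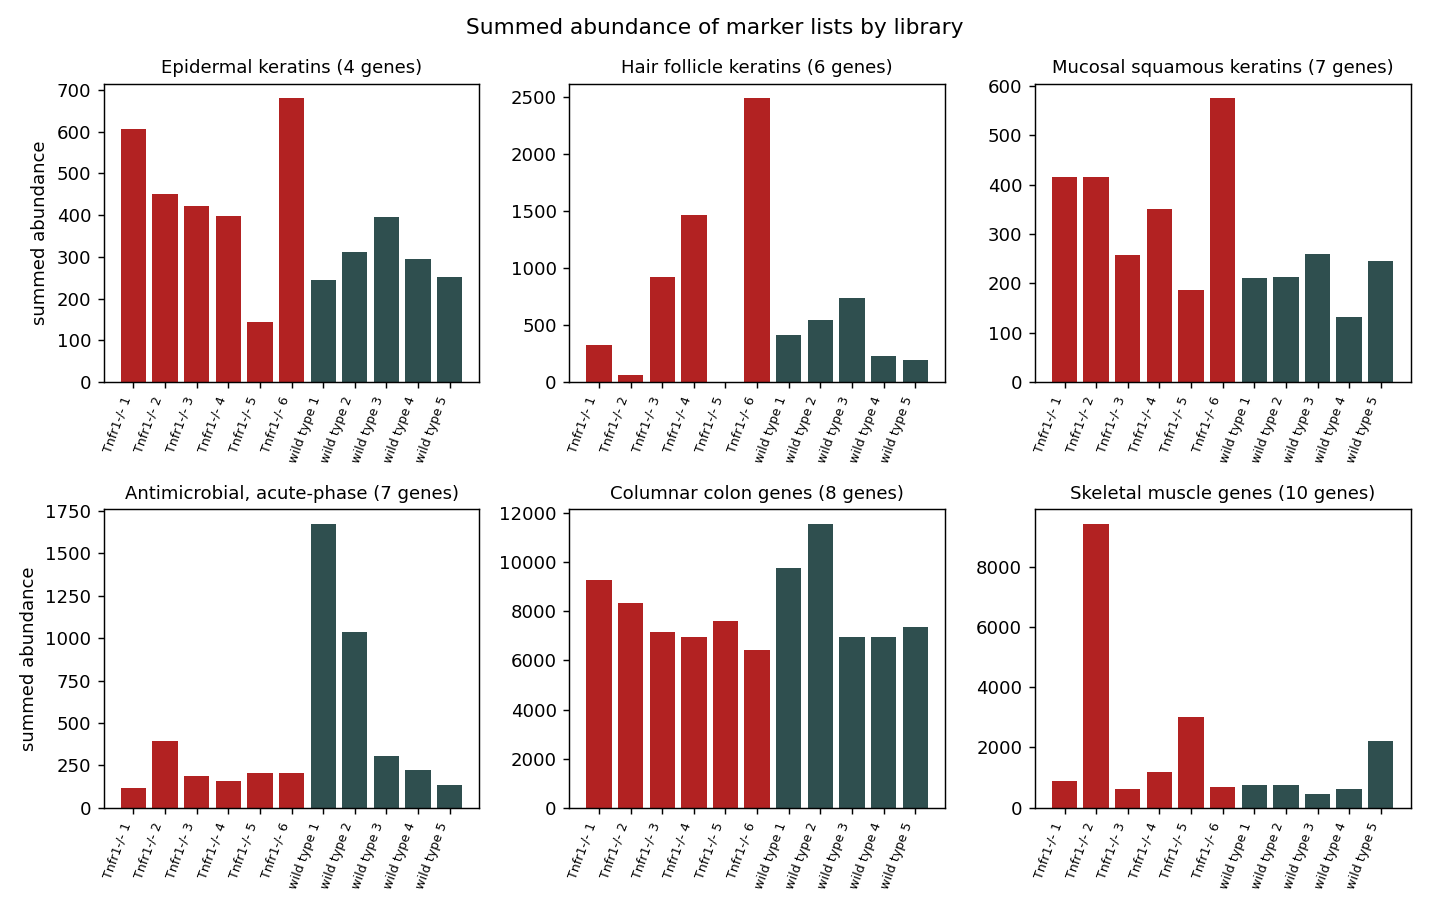
Summed abundance (TPM divided by a size factor) of 6 marker lists in each library, Tnfr1-/- (red) left of wild type (dark). Tnfr1-/- replicate 5 is lowest for epidermal and hair keratins (144 and 1.80), wild-type replicates 1 and 2 are highest for antimicrobial genes (1675 and 1036), and skeletal muscle genes are highest in Tnfr1-/- replicate 2 (9425).

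Genes of other tissues were examined in the same libraries. The 8 columnar colon genes all had fold changes below 0 with a median of -0.14, and 0 had an unadjusted p under 0.05. Skeletal muscle, which surrounds the anal canal, was represented by 10 genes that summed to 882, 9425, 617, 1202, 3011 and 676 in the Tnfr1-/- colons, against 771, 761, 473, 622 and 2209 in the wild-type colons. Tnfr1-/- replicate 2 was the highest and Tnfr1-/- replicate 5, the library with the least loricrin, the second highest. All 10 fold changes were above 0, with a median of 0.82 (0.59 without Tnfr1-/- replicate 5), beside a median of 0.50 over the tested barrier genes. Of these 10 genes, 0 were called and 0 had an unadjusted p under 0.05. The part of tissue composition in the barrier gene values was not tested.

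At the level of transcripts, 78 of the 111 transcripts of barrier genes in the table could be tested. Limma called 0 of them, where 3 of all 33276 transcripts (0.00902%) were called, and 5 had an unadjusted p under 0.05, of which 4 were higher and 1 was lower in Tnfr1-/-, against 8.26% of all transcripts. The smallest p was that of a minor Krtdap transcript (ENSMUST00000190480.1), with 41.5, 56.5, 38.6, 48.6, 21.4 and 67.2 in the Tnfr1-/- colons, against 17.7, 28.4, 20.4, 12.3 and 18.3 in the wild-type colons. Only Tnfr1-/- replicate 5 lay among the wild-type values (log2 fold change 1.18, SE 0.28, limma adjusted p = 0.363). A pair of Tgm1 transcripts had opposite signs, with log2 fold changes of -1.11 for ENSMUST00000002389.8 and 1.50 for ENSMUST00000178034.8 (limma adjusted p = 0.525 and 0.544), and single-end reads leave their split uncertain. In the authors' deposited table, 85 transcripts of barrier genes have a p-value, 3 of them under 0.05, and 0 have a q-value under 0.05. Of all transcripts with a p-value in the authors' deposited table, 4.39% are under 0.05.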

How the data were processed

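RNA of full-thickness colon from 11 mice was analysed (6 Tnfr1-/-, 5 wild type), 1 library per mouse. Stranded mRNA libraries were read from 1 end for 75 bases, per the labels' protocols. CASAVA, kallisto, sleuth and the build mm10 are named, with no role, in the submitters' processing notes, and their versions are not given in the sources used here. The deposited values per library are a normalized signal, TPM that the authors divided by a size factor, per the file headers and the values. The authors' test of each transcript gives the deposited p-value and q-value columns, its mean is on the natural log (ln) scale, and the fold change that the authors deposited is a log2 ratio.

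Repeated lines were dropped (113991 lines, 113193 distinct transcripts), and values were summed per Ensembl gene. Transcripts without a gene (97) held 0.0310% of the abundance and were left out. Genes and transcripts with a value of at least 1 in at least 5 libraries were tested in R 4.3.3 with limma 3.58.1 (moderated variances with a trend on the mean) after adding 0.5 and taking log2, two-sided, with Benjamini-Hochberg adjustment over all tested and a call at an adjusted p under 0.05. Fold changes on that scale understate the change of low genes. The plan held a count test in case the table held counts, and since it holds normalized abundance the limma branch was used. The table has no read totals. Depth was estimated as the scaling that made most low values whole reads. That brought 56.0% to 59.3% of values within 0.02 of a whole read, against 1.76% to 2.08% at other scalings. Because so many values were not whole, no count test was run.

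The barrier genes, the marker lists and the libraries left out together were chosen with earlier results of these data known. The rule for named genes took those with a mean of at least 5, the 8 with the smallest p, the 3 most abundant of each role and up to 4 of the most abundant genes of each list. Barrier genes below that mean are named to account for every one, and list genes outside the rule (Krt6b, Krt16, Krt78, Spink5, Grhl3, S100a8, S100a9, Lcn2, Saa3, Lamb3, Itgb4, Col7a1) after their values were seen. Positions are from GENCODE M21 on GRCm38. Upstream windows are RefSeq sequence on GRCm38.p6. Alternatives were other pseudocounts, filters and scalings, sample weights, the replicate number as a block (which leaves out Tnfr1-/- replicate 6), and leaving out libraries. Other steps used pandas 2.3.3, numpy 2.4.6, Python 3.11.15 and, for figures, matplotlib 3.10.9.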

Additional observations from a re-analysis of the deposited data

Results flagged for a closer look

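Each gene's values within a genotype, as abundance and not its log2, were checked for 1 library that stands apart. That was so in 7 of 100 cases. Chance would give about 5 (1 in 20) if the cases were separate, which they are not, so the counts are not a like comparison. Tnfr1-/- replicate 5 was far below the other 5 Tnfr1-/- libraries in 4 of the 7 cases. Lor was at 17.3 there, with the nearest other at 96.4. Lce1a2 was at 3.32 (nearest 20.3), Lce1c at 3.86 (nearest 19.4) and Lce1h at 1.29 (nearest 7.08). These 4 genes vary together, so they are not separate observations. In Tnfr1-/- replicate 6, Sprr4 reached 125, with the nearest of its genotype at 45.3. Those values rest on an estimated 120.5 and 46.3 reads. Among wild-type libraries, Tgm3 was at 174 in replicate 2, with the nearest at 96.8, and Lce6a was at 2.92 in replicate 5, with the nearest at 5.66.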

How the results depend on the processing

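No barrier gene was called by limma under any of 21 settings (smallest adjusted p = 0.193), and the count of called genes over the whole table was 3 with sample weights and 1 to 2 when single libraries were left out. Called transcripts ranged from 1 to 10 when single libraries were left out, with 0 of barrier genes. Replicate numbers are shared by the genotypes. Deviations of same-numbered libraries correlated at 0.27, -0.006, 0.38, -0.22 and 0.33, and 2 of 5 wild-type libraries correlated best with their own number. No test was made against other pairings, so these values cannot show whether the numbers pair the samples. With the replicate number as a block, 1 gene was called, 0 of them barrier genes, and 2 barrier genes had an unadjusted p under 0.05. That setting keeps only replicate numbers present in both genotypes, so it also leaves out Tnfr1-/- replicate 6. Its fold changes are those obtained without that library. Of 1026 fold changes of the 50 tested barrier genes under alternatives, 1007 kept their direction and 19, in 6 genes, reversed. Dsg1a was at -0.082 with the replicate block, the same value as without Tnfr1-/- replicate 6. Its reversal is counted under both settings. With sample weights, Sprr2a1 was at 0.46, Sprr2a2 at 0.43, Sprr2a3 at 0.49, Sprr4 at 0.11 and Tchh at 0.34. Without wild-type replicates 1 and 2, Sprr2a1 was at 0.78, Sprr2a2 at 0.76 and Sprr2a3 at 0.85. Leaving out single libraries gave -0.082 to 0.84 for Dsg1a, -0.55 to 0.24 for Sprr2a1, -0.51 to 0.24 for Sprr2a2, -0.51 to 0.26 for Sprr2a3, -0.85 to 0.75 for Sprr4 and -1.05 to 0.63 for Tchh. The cause of these turns was not tested beyond which library was left out. At an unadjusted p under 0.05 there were 0 to 32 barrier genes over the libraries left out, 3 of 58 tested with no filter and 0 of 26 with a filter at 10. For these counts and that of the replicate block, the share of all genes is not given, except without Tnfr1-/- replicate 5. They cannot show whether barrier genes exceeded other genes. Depth is only estimated, so no counting error was computed for the lowest genes.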
